A study of Mus musculus with 24 samples.

Results

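The EGFR family is the group of receptor tyrosine kinases that includes the epidermal growth factor receptor, together with the ligands that bind it and the proteins that switch it off. In all, 8 genes of this system, of 78298 in the deposited table, were followed by symbol through all 24 mouse lung libraries. They were the ligands Areg (ENSMUSG00000029378), Ereg (ENSMUSG00000029377), Hbegf (ENSMUSG00000024486) and Tgfa (ENSMUSG00000029999), the receptors Egfr (ENSMUSG00000020122), Erbb2 (ENSMUSG00000062312) and Erbb3 (ENSMUSG00000018166), and the feedback inhibitor Errfi1 (ENSMUSG00000028967). The membership was set by name.

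Wild type C57BL/6 mice, labelled male and 7 weeks old, formed 5 groups. All AEAA groups had drinking water with AEAA, the aqueous Artemisia argyi extract, for 28 days, at 0.5 mg/mL (low), 1 mg/mL (mid) or 1.5 mg/mL (high). On day 29 the LPS group and the 3 AEAA groups received lipopolysaccharide (LPS), a bacterial wall component that sets off acute lung inflammation, at 5 mg/kg into the trachea. Controls received saline according to the treatment protocol, although their sample characteristics also list the LPS challenge. Lungs were taken 8 h later and total RNA was sequenced after removal of ribosomal RNA, from 4 control mice and 5 mice in each other group. No group received AEAA without LPS, so the extract was measured only in challenged lungs.

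The ligands of this family are made as anchored precursors on the cell surface. The protease ADAM17, guided by iRhom proteins, cuts them free, and the released ligand pairs receptors into active dimers that signal through RAS and ERK. ERBB2 has no known ligand of its own and serves as a partner, while ERBB3 binds neuregulins and has a weak kinase. Errfi1 encodes MIG6, which is induced by the signal and blocks the EGFR kinase. In the lung, EGFR ligands from epithelium and leukocytes are known for their part in closing epithelial wounds.

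Promoter windows were searched for motifs of CREB, AP-1 and NF-kB, factors that act downstream of growth factor and LPS signals. RefSeq windows of 300 bases around the start of transcription (build GRCm38.p6) were found for 5 of the 8 genes: Areg, Tgfa, Egfr, Erbb2 and Errfi1. The complete cAMP response element TGACGTCA, searched on both strands, occurred in the Areg window and in 1 of the 2 Errfi1 windows, and in 1.79% of all 32851 windows. The 250 bases before the start are shown for both genes, with the element in capitals, on the plus strand at chr5:91139349-91139598 for Areg and chr4:150854820-150855069 for Errfi1.
Areg: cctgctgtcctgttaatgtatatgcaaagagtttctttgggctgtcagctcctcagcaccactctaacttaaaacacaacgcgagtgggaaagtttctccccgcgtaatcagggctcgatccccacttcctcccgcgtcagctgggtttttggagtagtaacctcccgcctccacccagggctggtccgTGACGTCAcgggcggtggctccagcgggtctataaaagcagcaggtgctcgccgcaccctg
Errfi1: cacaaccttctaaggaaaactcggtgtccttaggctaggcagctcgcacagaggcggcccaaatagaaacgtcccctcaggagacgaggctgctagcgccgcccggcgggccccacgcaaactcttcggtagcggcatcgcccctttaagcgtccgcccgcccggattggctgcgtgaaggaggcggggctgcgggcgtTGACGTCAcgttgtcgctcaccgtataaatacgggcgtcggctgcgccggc
The last base of the element lies 54 bases before the start in Areg and 44 in Errfi1. The AP-1 motif TGANTCA was in neither window, and it occurs in 7.81% of all windows. The NF-kB motif (GGG and CC with any 5 bases between) occurred in both of these windows but also in 50.79% of all windows. These matches are letters in a reference sequence, and binding was not measured. By gene order, Ereg and Areg are direct neighbours on chromosome 5, between the related ligand genes Epgn and Btc.

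Values are TPM, a length-normalized transcript level with a fixed total per library, divided here by a median-of-ratios factor per library and called scaled TPM. This was done because the club cell transcript Scgb1a1 alone took 23.2% to 35.5% of all TPM in controls and 2.51% to 8.80% in challenged libraries. The TPM as deposited of all other genes therefore move in part with it. The median log2 fold change of all 17823 tested genes, LPS against control, was 0.55 as deposited and 0.02 after scaling. With Scgb1a1 removed and no such factor, Tgfa gave 0.38 after LPS, between 0.74 as deposited and 0.16 after scaling. At the high dose against LPS, Erbb2 then gave -0.51, nearer to the deposited -0.54 than to the scaled -0.23. Read depth is unknown, since no counts were used. Of the 24 libraries, 7 from challenged mice (LPS 2 and 4, low 1, mid 1 and 4, high 1 and 4) had the neutrophil chemokine Cxcl2 at 0.0716 to 1.07 scaled TPM. The other 13 challenged libraries had 40.3 to 432 and the controls 0.0773 to 0.353, so results are also given without those 7. LPS 1, LPS 3 and low 5 held 1839, 1157 and 476 scaled TPM of skeletal actin Acta1, against 5.75 or less elsewhere. Without the 7, the LPS group is LPS 1, 3 and 5, so 2 of its 3 libraries are rich in Acta1. All 24 libraries contained Xist, and the Y-linked Ddx3y, Eif2s3y and Uty did not pass 0.0342 scaled TPM, against the label male. Lung markers were present in every library, with 11010 to 58050 summed scaled TPM for 6 type II alveolar genes.

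Among the 7 members that passed the filter on low levels (at least 1 TPM in 4 libraries), Egfr was the 1 that rose after LPS. No member fell. The test was limma, a linear model with moderated statistics, at a Benjamini-Hochberg adjusted p under 0.05 over all tested genes. By it 27.9% of all genes passed, 14.2% of all being higher and 13.7% lower. On the TPM as deposited, 4 members rose (Tgfa, Egfr, Erbb2 and Erbb3), where 58% of all genes passed. Ereg did not reach the filter and has no test. Against LPS, no member was called at the low dose (2.11% of all genes passed) or the mid dose (0% passed), and 1, Egfr, at the high dose (8.73%). Against control there were 2 at the low dose, Egfr and Errfi1 (25.5%), and Egfr alone at the mid (28.1%) and high dose (18.8%). None was called in the linear trend over LPS and the 3 doses (1.53%) or in the test of any dose against LPS (7.07%). As deposited, the counts against LPS were 3 (10.6%), 0 (0%) and 4 (27.6%) from low to high dose, with 1 in the trend (8.4%) and 4 for any dose (22.2%). Each library is labelled a biological replicate.

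**Figure D1:**
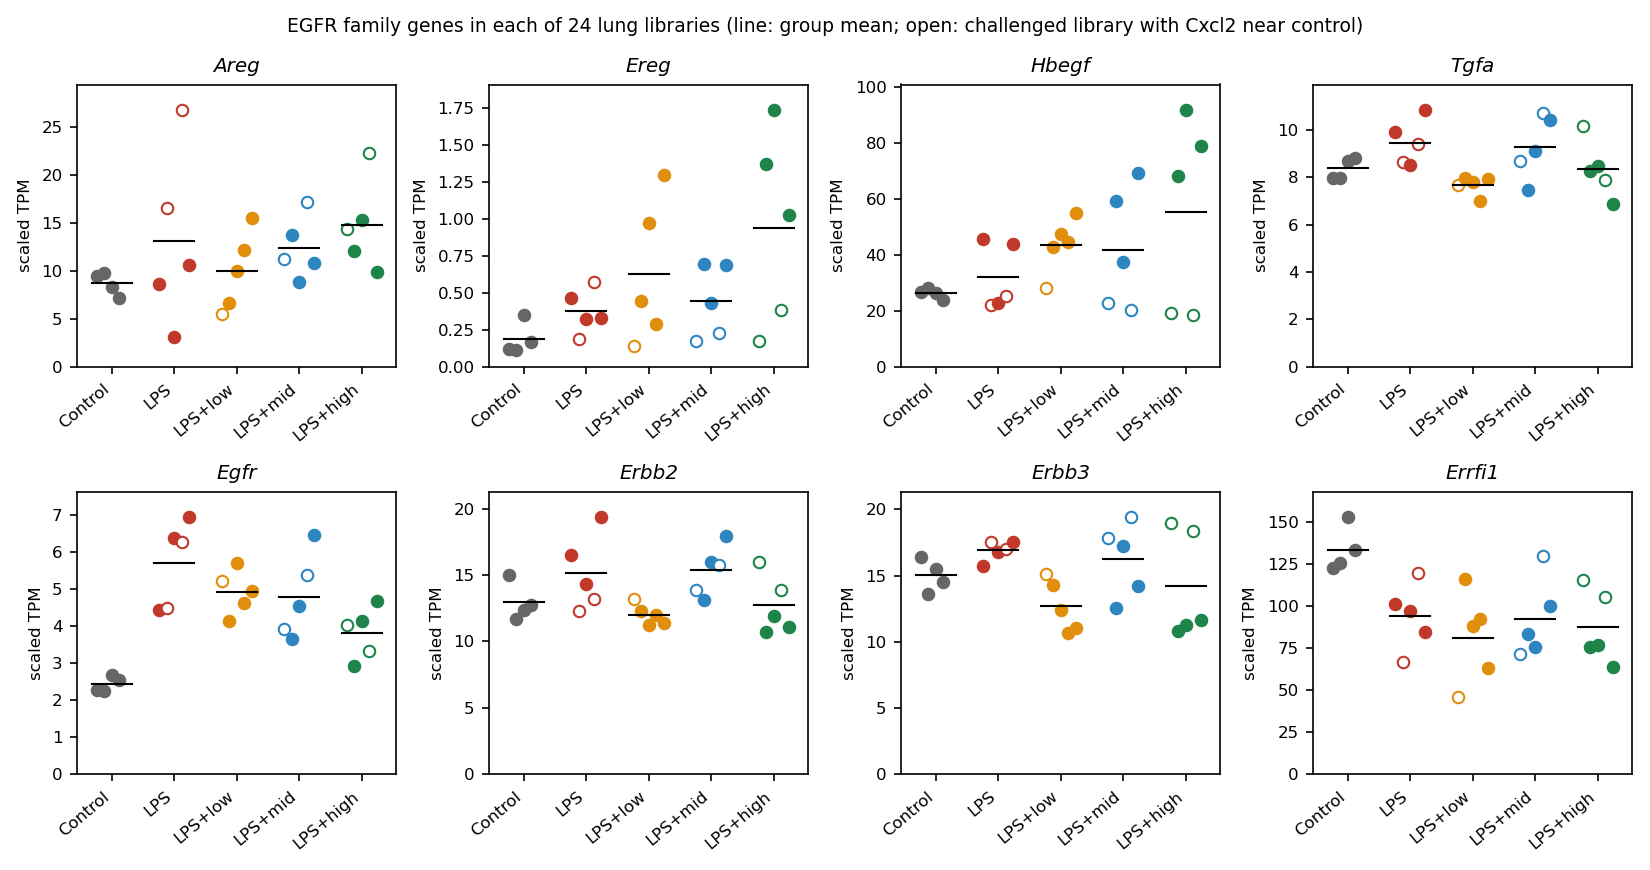
Scaled TPM (vertical axes, linear) of the 8 genes in each of the 24 libraries by group, with points for libraries and lines for group means. Open points are the 7 challenged libraries with Cxcl2 near control. Every challenged library lies above the controls for Egfr, and 19 of 20 lie below them for Errfi1.

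Amphiregulin, encoded by Areg, is a lower-affinity EGFR ligand known from epithelial growth and tissue repair. Areg stood at 9.53, 9.80, 8.35 and 7.20 scaled TPM in the 4 controls. In the LPS group it was 8.63, 16.5, 3.17, 26.8 and 10.7. The LPS libraries thus lay on both sides of the controls, 3 above all of them and 1 below. At the low dose Areg was 5.57, 6.63, 10.02, 12.2 and 15.6, and at the mid dose 11.3, 13.8, 8.90, 17.2 and 10.9. The high dose libraries had 14.4, 12.1, 15.3, 22.4 and 9.92, and all 5 were above every control, a separation seen in 14.8% of tested genes. From lowest to highest the group means were control (8.72 ± 1.19, SD, n = 4), low (10 ± 4.09), mid (12.4 ± 3.21), LPS (13.2 ± 9.01) and high (14.8 ± 4.71, n = 5 each), and neighbours in that order overlapped. The log2 fold change was 0.29 (SE 0.38, limma adjusted p = 0.579) for LPS against control and 0.66 (SE 0.38, adjusted p = 0.194) for the high dose against control. Against LPS the doses gave -0.18, 0.15 and 0.38 from low to high, each with an SE of 0.35 and an adjusted p of 0.57 or more. Without the 3 libraries rich in Acta1, a choice made after seeing the data, the LPS difference became 0.88 (adjusted p = 0.0497, with 15% of all genes passing). Without the 7 low-Cxcl2 libraries it turned to -0.32 (adjusted p = 0.421). With single libraries left out it ran from -0.02 (without LPS 4) to 0.66 (without LPS 3).

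Epiregulin, the product of Ereg, is a broad ligand of EGFR and ERBB4 that is usually scarce in resting tissue. It was the least abundant member on the scaled TPM scale. The controls had 0.123, 0.111, 0.353 and 0.168 scaled TPM, and the LPS libraries had 0.462, 0.187, 0.322, 0.573 and 0.328. At the high dose it was 0.176, 1.37, 1.73, 0.384 and 1.03, the widest spread of any group. The 13 libraries with high Cxcl2 ran from 0.288 to 1.73 (median 0.689), and the 7 others among the challenged from 0.140 to 0.573 (median 0.187). Ereg was not tested, since it did not reach the filter on low levels.

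HB-EGF, encoded by Hbegf, is a heparin-binding ligand that is induced quickly in injured epithelium and in activated macrophages. The controls lay close together at 26.6, 28.3, 26.4 and 23.8 scaled TPM. The LPS libraries had 45.7, 22.0, 22.8, 25.1 and 43.8, so 2 were above all controls and 2 below. In the low dose group Hbegf was 28.1, 42.7, 47.3, 44.4 and 54.8, and in the mid dose group 22.7, 59.0, 37.4, 20.5 and 69.3. In the high dose group it was 19.3, 68.1, 91.6, 18.3 and 78.7. The high dose group was split into 3 libraries above every LPS library and 2 below every LPS library, and the 2 low ones are high 1 and high 4.

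Hbegf group means ran from control (26.3 ± 1.87 scaled TPM, SD, n = 4) over LPS (31.9 ± 11.8), mid (41.8 ± 21.7) and low (43.5 ± 9.73) to high (55.2 ± 34.2, n = 5 each), with overlap between neighbours. With all libraries, Hbegf passed in no comparison on scaled TPM. LPS against control gave a log2 fold change of 0.20 (SE 0.44, limma adjusted p = 0.751), and the high dose against LPS 0.55 (SE 0.41, adjusted p = 0.45). The deposited TPM gave 1.08, 1.07 and 1.06 for the low, mid and high dose against control (limma adjusted p = 0.0291, 0.0262 and 0.0381), comparisons that share their controls. There 46.4%, 54.8% and 39% of all genes passed.

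Hbegf ran with Cxcl2 across the libraries. The 7 challenged libraries with Cxcl2 near control had 18.3 to 28.1 scaled TPM of Hbegf, none above the highest control (28.3). The 13 others had 22.8 to 91.6 with a median of 47.3, and the lowest of them, LPS 3, also had the lowest Cxcl2 of the 13. Sample quality weights brought Hbegf past the threshold at the high dose against LPS (1.07, limma adjusted p = 0.0226). The share of all genes passing with these weights is not given here. Of 13 alternative settings, 11 left Hbegf uncalled in that comparison. Leaving the 7 out, Hbegf rose at the high dose against LPS, by a log2 fold change of 1.12 (limma adjusted p = 0.0038). It was not called at the low dose (0.39, adjusted p = 0.296) or the mid dose (0.57, adjusted p = 0.85) against LPS. Nor was it called for LPS against control (0.44, adjusted p = 0.12). Against control it then rose by 0.82, 1.00 and 1.55 from low to high dose (adjusted p = 0.0048, 0.00217 and 4.52e-05). The slope over LPS and the 3 doses was 0.35 per dose step (adjusted p = 0.00665, with 16.5% of all genes passing). In those fits 24.8% of all genes passed for the high dose against LPS, and 43.4%, 45.4% and 51.8% for the doses against control. The 7 libraries were set aside by the level of a gene that responds to LPS, so these values describe the remaining libraries and leave 3 of 5 per group in the LPS, mid and high groups. The remaining LPS libraries are LPS 1 and LPS 3, both rich in Acta1, and LPS 5.

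**Figure D2:**
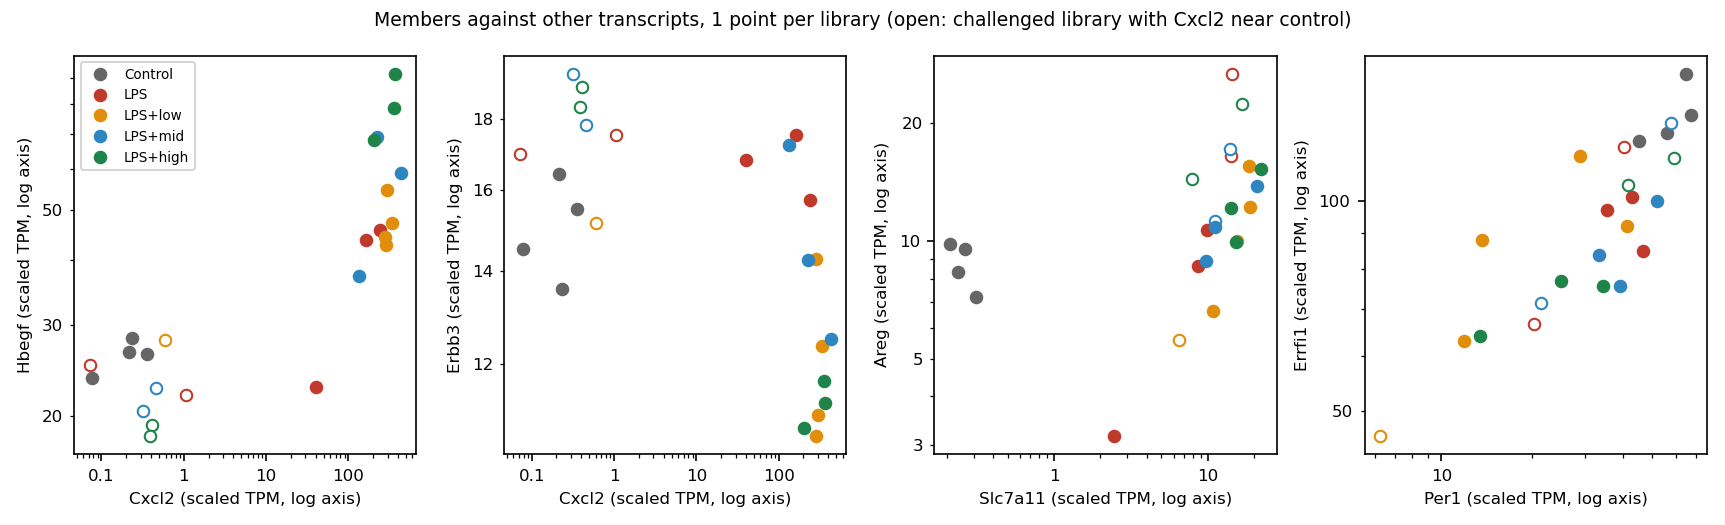
Each point is 1 library, with scaled TPM on log axes: Hbegf against Cxcl2, Erbb3 against Cxcl2, Areg against Slc7a11 and Errfi1 against Per1. Colours are groups, and open points are the 7 challenged libraries with Cxcl2 near control. Hbegf is between 18.3 and 28.1 in the open points and reaches 91.6 in the filled ones, and Erbb3 runs the other way.

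TGF-alpha, encoded by Tgfa, is a high-affinity EGFR ligand with steady expression in many epithelia. It varied least over the libraries, from 6.86 to 10.8 scaled TPM. Controls had 7.99, 7.97, 8.71 and 8.84, and LPS libraries 9.93, 8.67, 8.51, 9.42 and 10.8. All 5 low dose libraries (7.68, 7.97, 7.82, 7.02 and 7.92) lay below every LPS library, a separation seen in 4.86% of tested genes for this comparison. Their log2 fold change against LPS was -0.27 (SE 0.10, limma adjusted p = 0.167). The mid dose libraries had 8.68, 7.45, 9.14, 10.7 and 10.4 and the high dose libraries 10.2, 8.28, 8.46, 7.90 and 6.86. By group mean the order was low (7.68 ± 0.389, SD), high (8.34 ± 1.21), control (8.38 ± 0.463), mid (9.28 ± 1.33) and LPS (9.47 ± 0.955), again with overlap between neighbours. LPS against control gave 0.16 (SE 0.10, limma adjusted p = 0.254), and 0.74 as deposited (adjusted p = 0.00011). On the deposited TPM, Tgfa also fell against LPS at the low dose, by 0.48, and at the high dose, by 0.46 (limma adjusted p = 0.0289 and 0.0141). There 10.6% and 27.6% of all genes passed. With Scgb1a1 removed, Tgfa gave -0.45 and -0.44 at these doses (limma adjusted p = 0.0312 and 0.0163), and 0.38 after LPS (adjusted p = 0.0319).

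Egfr, the shared receptor of the 4 ligands, was called in each comparison with control. It was 2.27, 2.24, 2.68 and 2.55 scaled TPM in the controls, and 4.44, 4.49, 6.38, 6.28 and 6.93 in the LPS group. Its log2 fold change was 0.95 (SE 0.15, limma adjusted p = 0.000169), with no overlap between the groups, as in 27.8% of tested genes. The call held with each of the 9 libraries left out in turn, with adjusted p of 0.00118 or less, and on the deposited TPM (1.43, adjusted p = 5.16e-07). Low dose libraries had 5.20, 4.13, 5.70, 4.62 and 4.95, and mid dose libraries 3.92, 3.63, 4.54, 5.39 and 6.46. High dose libraries had 4.02, 2.91, 4.14, 3.33 and 4.68. All 20 challenged libraries, the 7 with low Cxcl2 included, were above all 4 controls. Such a separation from control was seen in 28.5%, 31.5% and 14.8% of tested genes at the low, mid and high dose.

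Egfr had its order of group means at LPS (5.70 ± 1.16 scaled TPM, SD, n = 5), low (4.92 ± 0.593), mid (4.79 ± 1.15), high (3.82 ± 0.699) and control (2.43 ± 0.216, n = 4). Neighbouring challenged groups in that order overlapped. Against LPS the low dose gave a log2 fold change of -0.17 (limma adjusted p = 0.597), the mid dose -0.22 (adjusted p = 1) and the high dose -0.47 (SE 0.14, adjusted p = 0.0385). So Egfr fell at the high dose, where 8.73% of all genes passed and 3.07% were lower. These 3 comparisons share the LPS libraries. Leaving out LPS 3, 4 or 5 or high 2, 3 or 4 ended that call, with adjusted p from 0.059 to 0.107 and a log2 fold change from -0.40 to -0.50. Without the 7 low-Cxcl2 libraries the difference was -0.49 (adjusted p = 0.0707). Against control Egfr rose by 0.78, 0.73 and 0.48 at the low, mid and high dose (limma adjusted p = 0.00193, 0.00144 and 0.0318). The high dose value missed the threshold without any 1 of the controls or without high 3 or high 5. It also missed it with upper-quartile scaling (adjusted p = 0.0678), with Scgb1a1 removed (0.0731), without a filter (0.0704) and when only controls and the high dose were fitted (0.0774). The fall against LPS was likewise not called without a filter (0.0969), with quality weights (0.0502), when only LPS and the high dose were fitted (0.184) or without the 3 libraries rich in Acta1 (0.0764).

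Erbb2 encodes the partner receptor of the family. Controls had 15.0, 11.7, 12.4 and 12.8 scaled TPM and LPS libraries 16.5, 12.3, 14.3, 13.2 and 19.3. Low dose libraries were narrow, at 13.2, 12.3, 11.2, 12.0 and 11.4, and 4 of the 5 were below every LPS library. Mid dose libraries had 13.8, 13.1, 16.0, 15.8 and 18.0, and high dose libraries 15.9, 10.7, 11.9, 13.9 and 11.1. Group means were lowest at the low dose (12.01 ± 0.799, SD), then high (12.7 ± 2.19), control (12.9 ± 1.42), LPS (15.1 ± 2.82) and mid (15.3 ± 1.92), and neighbours overlapped. The log2 fold change was 0.20 (SE 0.12, limma adjusted p = 0.231) after LPS, and against LPS it was -0.30, 0.03 and -0.23 from low to high dose, none past the threshold. As deposited, Erbb2 rose after LPS by 0.81 (limma adjusted p = 5.79e-05) and fell at the low and high dose by 0.51 and 0.54 (adjusted p = 0.025 and 0.00737). There 58%, 10.6% and 27.6% of all genes passed. With Scgb1a1 removed these 3 values were 0.43, -0.49 and -0.51 (limma adjusted p = 0.0284, 0.0345 and 0.0124).

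ERBB3 is the neuregulin-binding receptor of the airway and alveolar epithelium. Erbb3 in controls was 16.4, 13.6, 15.5 and 14.5 scaled TPM, and the LPS libraries had 15.7, 17.5, 16.8, 16.99 and 17.5. All 5 low dose libraries, at 15.2, 14.3, 12.4, 10.7 and 11.03, were below every LPS library, as in 4.86% of tested genes, with a log2 fold change of -0.40 (SE 0.14, limma adjusted p = 0.167). Mid dose libraries had 17.8, 12.5, 17.3, 19.4 and 14.3. The high dose libraries split into 19.0 and 18.4 (high 1 and 4) and 10.8, 11.3 and 11.7, so that 2 were above and 3 below every LPS library. The group means were ordered low (12.7 ± 1.98, SD), high (14.2 ± 4.08), control (15.01 ± 1.24), mid (16.3 ± 2.798) and LPS (16.9 ± 0.729), with overlap between neighbours. The log2 fold change of the high dose against LPS was -0.28 (SE 0.14, adjusted p = 0.257). As deposited it was -0.58 (limma adjusted p = 0.0221), and LPS against control was 0.78 (adjusted p = 0.00146). There 27.6% and 58% of all genes passed. With Scgb1a1 removed, Erbb3 gave -0.59 and -0.56 at the low and high dose against LPS (limma adjusted p = 0.0481 and 0.0334). After LPS it then gave 0.40 and was not called (adjusted p = 0.12).

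Without the 7 low-Cxcl2 libraries, both partner receptors fell against LPS at the low and the high dose. Erbb2 fell by 0.47 and 0.53 on the log2 scale (limma adjusted p = 0.0282 and 0.00639), and Erbb3 by 0.44 and 0.53 (adjusted p = 0.0338 and 0.00531). At the mid dose the values were -0.09 and -0.18 (adjusted p = 0.985 and 0.971). In these fits 6.07%, 24.8% and 0.0112% of all genes passed at the low, high and mid dose. Erbb2 then also rose after LPS, by 0.34 (adjusted p = 0.0232, with 47.4% of all genes passing). The LPS side of these fits is LPS 1, 3 and 5, of which LPS 1 and LPS 3 are rich in Acta1. The summed level of the epithelial genes Epcam, Cdh1 and Nkx2-1 was 298 to 389 scaled TPM in the 7 low-Cxcl2 libraries, 198 to 310 in the other 13 and 317 to 350 in controls. Type I alveolar genes summed to 2262 to 3468 in the 7 and 2003 to 3728 in the 13, and club cell genes to 22100 to 99550 and 39180 to 95300. These 2 lists did not separate the 7 from the 13. Type II alveolar genes were mostly higher in the 7, at 29110 to 41860 (median 34880) against 11010 to 30640 (median 14720). Ciliated cell genes were too, at 653.5 to 1067 (median 849.4) against 351 to 676.9 (median 485.7). Within the 13, the sum of Epcam, Cdh1 and Nkx2-1 was 202 to 310 (median 281.6) in the LPS group. It was 198 to 260 (median 231.8) at the low dose and 230 to 238 (median 237.2) at the high dose. Both dose groups overlapped LPS in range, with lower medians. The 7 neutrophil genes summed to 1674 to 11230 (median 1929), 2599 to 3964 (median 3430) and 6934 to 12890 (median 11940) in the same libraries. In whole lung, fewer epithelial cells and less of a transcript per cell cannot be told apart. The part of cell makeup in these differences was not tested.

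**Figure D3:**
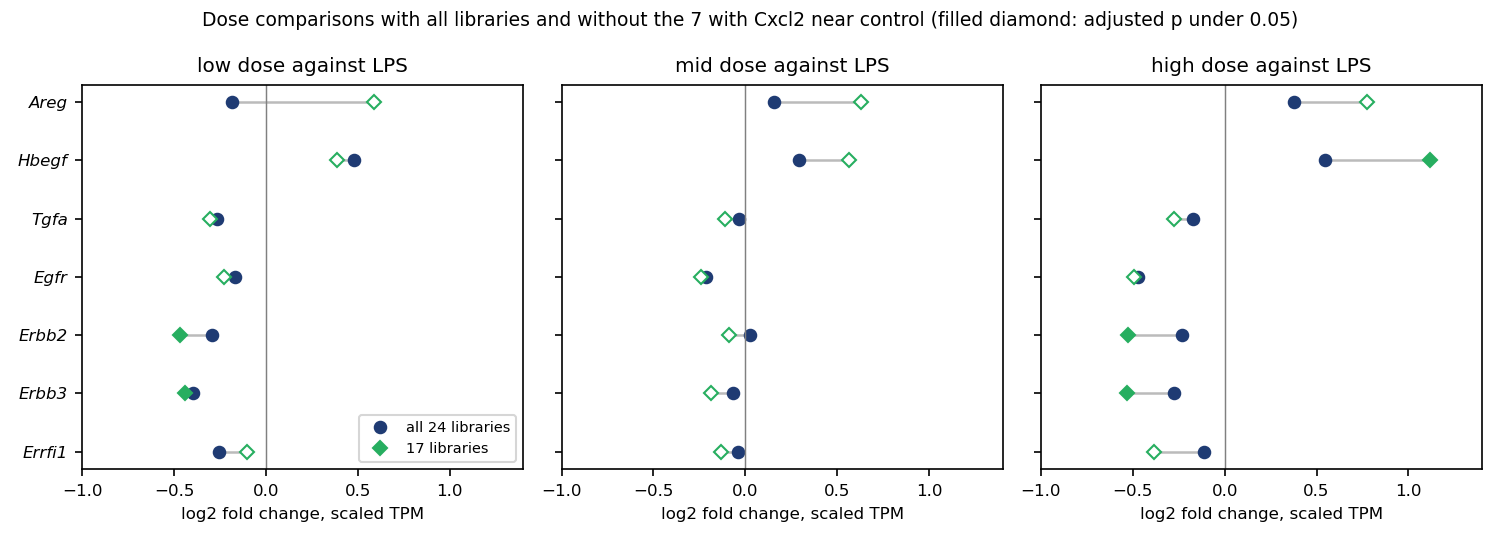
Log2 fold change (horizontal axes, scaled TPM) of the 7 tested members at each dose against LPS, with all 24 libraries (circles) and with the 17 left after removing those with Cxcl2 near control (diamonds, filled where adjusted p is under 0.05). At the high dose Hbegf moves from 0.55 to 1.12, Erbb2 from -0.23 to -0.53 and Erbb3 from -0.28 to -0.53.

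Errfi1 was the most abundant member on the scaled TPM scale. Controls had 122, 126, 153 and 133 scaled TPM, and LPS libraries 101.4, 66.7, 97.3, 120 and 84.9, all below every control, as libraries of the groups do not overlap in 27.8% of tested genes. The low dose gave 46.0, 116, 87.9, 92.3 and 62.9, the mid dose 71.4, 83.7, 75.7, 130 and 100, and the high dose 116, 75.5, 76.8, 106 and 64.0. Of the 20 challenged libraries, 19 were below all controls, with mid 4 the exception. Low and high dose libraries thus did not overlap the controls, as in 28.5% and 14.8% of tested genes. Group means ran low (81.1 ± 27.3, SD), high (87.5 ± 21.96), mid (92.1 ± 23.7), LPS (94.02 ± 19.8) and control (133.5 ± 13.7), where LPS and control did not overlap and the challenged groups did. The log2 fold change was -0.52 (SE 0.23, limma adjusted p = 0.0946) after LPS, and against the same controls -0.78 (adjusted p = 0.0215), -0.56 (adjusted p = 0.0749) and -0.63 (adjusted p = 0.0586) from low to high dose. Errfi1 thus fell at the low dose, where 25.5% of all genes passed, and missed the threshold in the other comparisons.

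This direction depends on the scale: as deposited, Errfi1 differed by 0.13 (adjusted p = 0.688) after LPS and by 0.04 (adjusted p = 0.913) at the mid dose, and by -0.36 and -0.30 at the low and high dose, none passing in limma. The low dose call was lost without control 3 (adjusted p = 0.0624), low 5 (0.0561) or the 3 libraries rich in Acta1 (0.0673). Errfi1 passed at the mid dose without mid 4 (adjusted p = 0.0367), and at the high dose without high 1 (0.0237) or high 4 (0.0327). With upper-quartile scaling it passed at the mid dose (-0.66, adjusted p = 0.0436) and the high dose (-0.76, adjusted p = 0.0343), and with quality weights in all comparisons with control, LPS included (-0.53, adjusted p = 0.026). Without the 7 low-Cxcl2 libraries, Errfi1 fell in all 4 comparisons with control, by 0.49 after LPS (adjusted p = 0.0212) and by 0.59, 0.62 and 0.88 from low to high dose (adjusted p = 0.00507, 0.00597 and 0.00038). In those 4 fits 47.4%, 43.4%, 45.4% and 51.8% of all genes passed, and the cut on Cxcl2 limits these values as it does for Hbegf. Clock transcripts moved with the same contrast. Dbp was at 263 to 314 scaled TPM in controls and 7.68 to 133 in challenged lungs, and Bmal1 at 0.953 to 1.36 and 2.11 to 20.8. The labels give no hour of day, and the part of that difference in Errfi1 was not tested. An antisense transcript overlaps the 5' end of Errfi1 in GENCODE vM21, and whether strand was used in quantification is not given in the sources used here.

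**Figure D4:**
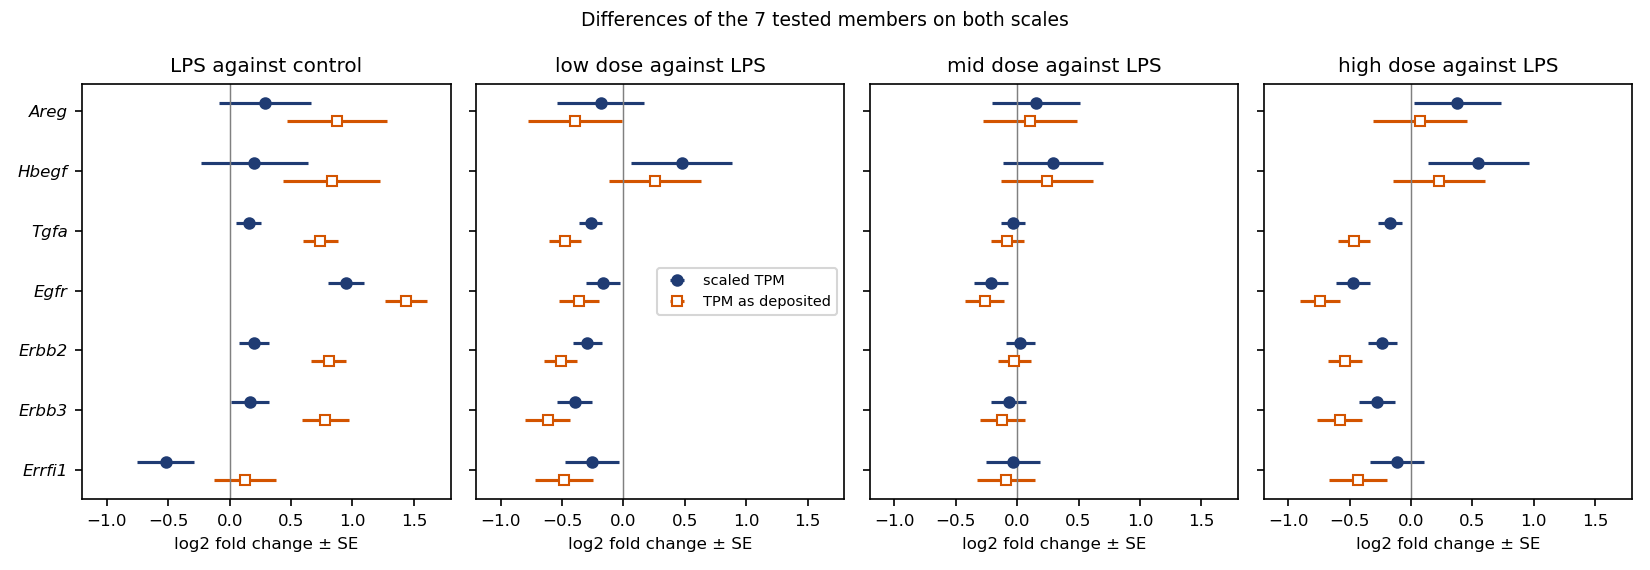
Log2 fold change with its SE (horizontal axes) of the 7 tested members in 4 comparisons, from scaled TPM (filled circles) and TPM as deposited (open squares). After LPS, Egfr is at 0.95 on scaled TPM, and Errfi1 is at -0.52 on scaled TPM and 0.13 as deposited.

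Of the 8 further ligand and receptor genes, 4 passed the filter, and 1 of these rose after LPS (14.2% of all genes did): Nrg1, a neuregulin ligand of ERBB3 and ERBB4. Nrg1 had 2.21, 1.14, 1.86 and 2.40 scaled TPM in controls and 5.62, 4.69, 2.39, 7.10 and 5.98 after LPS, a log2 fold change of 1.05 (SE 0.23, limma adjusted p = 0.00246). It rose against the same controls at each dose as well, by 0.78, 0.95 and 0.81 (adjusted p = 0.0202, 0.00503 and 0.0231). Betacellulin (Btc) lay at 3.45 to 4.78 in controls, 1.63 to 5.93 in the 7 low-Cxcl2 libraries and 0.796 to 2.15 in the other 13. The share of all genes that separate controls from these 13 is not given here. Btc fell at the mid dose against control by 0.94 (limma adjusted p = 0.0492; -0.50 and not called as deposited), and gave -0.64 after LPS (adjusted p = 0.169). Egf itself stood at 4.21 and 4.00 in LPS 1 and LPS 3, which were also rich in Acta1, and at 0.740 or less in all other libraries. Erbb4 and Epgn did not exceed 0.319 and Nrg3 was listed at 0 in every library.

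Of the 5 genes for ligand release, 3 rose after LPS and none fell, where 14.2% of all genes rose and 13.7% fell. Rhbdf2, which encodes the iRhom2 protein that carries ADAM17 to the surface, rose by a log2 fold change of 1.19 (limma adjusted p = 0.00431), Adam17 by 0.92 (adjusted p = 0.011) and Frmd8, a binding partner of iRhoms, by 0.51 (adjusted p = 0.00637). Adam10 and Rhbdf1 gave 0.04 and 0.25. Rhbdf2, Adam17 and Frmd8 also rose at each dose against the shared controls, Rhbdf2 by 0.98, 1.11 and 0.96 from low to high. The median of the 5 genes after LPS was 0.51, beside 0.02 over all genes.

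Inside the cell, 5 of 20 signal relay genes (25%) passed after LPS, close to the 27.9% of all genes, and these 5 rose. Among them were the adaptor Shc1 (0.58, limma adjusted p = 0.00532), the kinase Akt1 (0.49) and the ERK kinase Map2k2 (0.45). The median log2 fold change over the 20 genes was 0.18. Of 16 genes for receptor attenuation and ERK feedback, 3 passed (18.8%, below the 27.9% of all genes), each higher: the phosphatase Dusp4 by 0.51 (adjusted p = 0.0496), the ubiquitin ligase Cblb by 0.47 (adjusted p = 0.00681) and Spred2 by 0.46 (adjusted p = 0.0159). Spry2 in this list was lower at the mid dose than in controls on scaled TPM, by 0.31 (limma adjusted p = 0.0355), and higher on the deposited TPM, by 0.28, also called. Of 9 ERK-inducible genes, 2 passed (22.2%), Myc (1.85, adjusted p = 0.000118) and Fosl1 (1.61, adjusted p = 0.0113), both higher, while Fos gave 1.03 (adjusted p = 0.0814) and Egr1 0.85 (adjusted p = 0.24).

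Of 10 epithelial injury and repair genes, 4 rose after LPS (40%, where 14.2% of all genes rose) and none fell. They were the cell cycle inhibitor Cdkn1a (2.42, limma adjusted p = 0.000558), Sfn, which encodes 14-3-3 sigma (1.83, adjusted p = 0.000186), galectin 3, encoded by Lgals3 (1.38, adjusted p = 0.000451), and the keratin Krt7 (0.61, adjusted p = 0.0325). Myeloid cells also express Lgals3, and 6 of 7 neutrophil markers rose in the same comparison. Across these 6 lists 18 of 64 tested genes passed on scaled TPM, a share of 28.1% beside 27.9% of all genes. On the deposited TPM 54 passed (84.4%, beside 58% of all genes). All of these were higher, but with upper-quartile scaling 15 list genes rose and 2 fell, and without the 7 low-Cxcl2 libraries 28 rose and 3 fell.

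Against LPS, 3 of these 64 list genes (4.69%) fell at the high dose, where 8.73% of all genes passed and 3.07% fell, and none passed at the low or mid dose on scaled TPM. Fos, an early ERK target, fell by a log2 fold change of 1.39 (limma adjusted p = 0.0397), Lrig3, a relative of the EGFR inhibitor Lrig1, by 0.48 (adjusted p = 0.031) and Spred2 by 0.47 (adjusted p = 0.0265). The high dose comparison shares its LPS libraries with the Egfr value of -0.47.

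**Figure D5:**
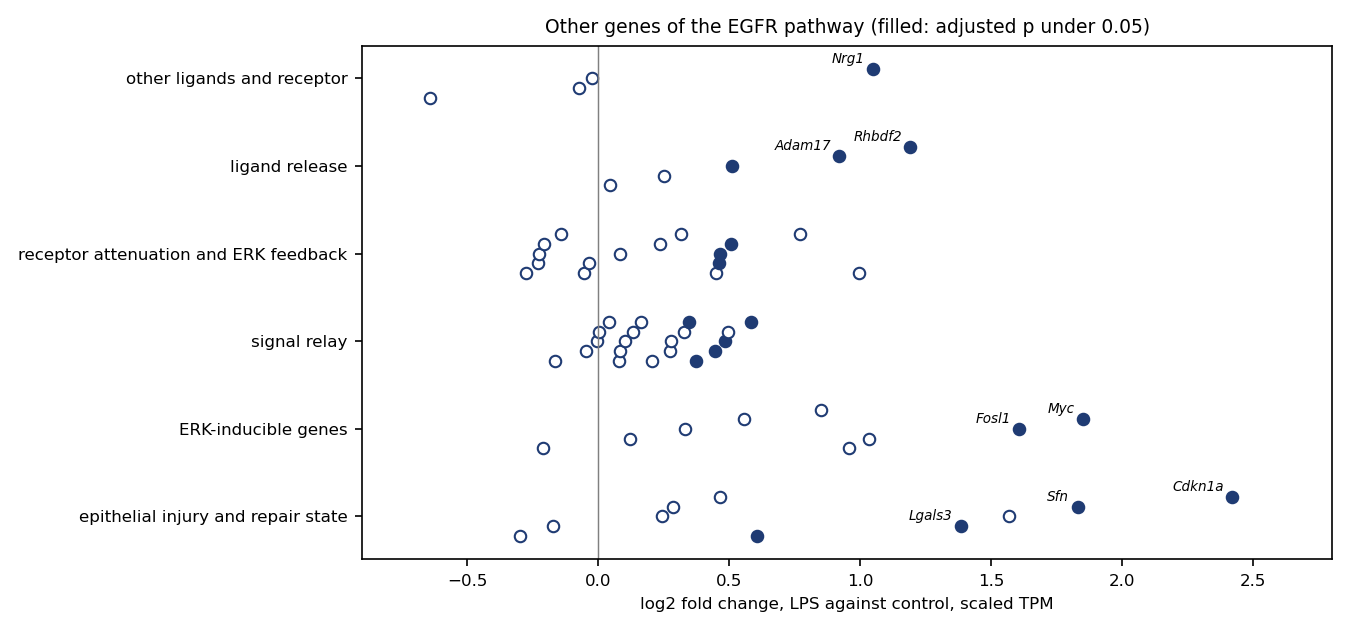
Log2 fold change of LPS against control on scaled TPM (horizontal axis) for each tested gene of 6 lists (rows). Filled points passed at an adjusted p under 0.05. All 18 filled points lie to the right of 0, up to Cdkn1a at 2.42.

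The genes whose deviations from the group means ran closest to each member's were described over all 24 libraries and again over the 13 challenged libraries with high Cxcl2. For the 13, deviations were still taken from the means of the full groups, and the genes were those picked over all 24 libraries. The 13 are therefore no independent second look. Points share library and scaling factor, so no test is given. For Areg the closest were Gclc (Pearson r = 0.83), Akr1b8 (r = 0.82) and Slc7a11 (r = 0.80), with r = 0.83, 0.88 and 0.92 over the 13. By rank (Spearman) the values over all 24 libraries were lower, at 0.631, 0.695 and 0.756. These 3 genes are known for glutathione supply and detoxification of aldehydes. LPS 3 had the lowest Areg of all libraries and, among challenged ones, the lowest Slc7a11 (2.44 scaled TPM) and Gclc (47.0). Areg did not separate challenged from control lungs as Slc7a11 did, which was at 0.210 to 0.309 in controls and 2.44 to 22.3 in challenged lungs.

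Hbegf ran closest to the heparan sulfate carrier Sdc4 (r = 0.96), the prostaglandin E synthase Ptges (r = 0.95) and Phlda1 (r = 0.95), which over the 13 libraries gave 0.86, 0.84 and 0.84. Erbb3 ran with Net1 (r = 0.96), Epb41l4b (r = 0.95) and Gpr155 (r = 0.95), and Erbb2 with the collagen receptor Ddr1 (r = 0.89), the sodium channel subunit Scnn1b (r = 0.87) and Tcf7l1 (r = 0.84). For Errfi1 they were Plekhf1 (r = 0.88), the clock gene Per1 (r = 0.84) and Tsc22d3 (r = 0.82), and the last 2 are known glucocorticoid targets. Over the 13 libraries those values were 0.74, 0.73 and 0.76. Low 1 had the lowest Errfi1 (46.0 scaled TPM) and the lowest Per1 (6.27). Tgfa was closest to Myo1d (r = 0.90), Cep170b (r = 0.87) and Ankrd13b (r = 0.84), and Egfr to Zscan22 (r = 0.81), Lztr1 (r = 0.78) and Txnl4a (r = 0.73).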

How the data were processed

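Expression values are TPM deposited by the authors for 78298 genes, rounded to 2 decimals, with 1 column for each of the 24 libraries. Per the submitters' processing notes, the authors used HISAT2, StringTie, RSEM and DESeq2 with genome build GRCm39. Versions, annotation and strand setting are not given in the sources used here. No read counts were used, so depth is unknown and counting error could not be given.

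Each library was divided by its median-of-ratios factor over 18673 genes above 0 in all libraries, and log2(scaled TPM + 1) was fitted with limma 3.58.1 (R 4.3.3), 1 mean per group, variance trend and robust prior, in the 17823 genes that reached 1 TPM in 4 or more libraries. The pseudocount of 1 makes fold changes of low genes smaller. Tests were two-sided with Benjamini-Hochberg adjustment over all tested genes, at 0.05. On simulated data for LPS against control (17823 genes) the fit recovered 66 of 100 genes changed by a log2 fold of 1 and 95 of 100 changed by 2, with 8 false calls among 169.

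The members and gene lists were chosen with earlier results of these data known. The text names all 8 members, the 4 largest called changes in each pathway list after LPS, list genes called at a dose (up to 4), and the 3 genes with the highest Pearson r to each member over deviations from group means, with further genes added as context. For Nrg1, which has 2 gene IDs, the more abundant was used. Alternatives were the TPM as deposited, upper-quartile scaling, Scgb1a1 removed, a pseudocount of 0.1, other filters, quality weights, the compared groups alone, a replicate block, a transcript length curve, a fold threshold, and libraries left out. Leaving out the 3 libraries rich in Acta1 was added after seeing the data. Replicate numbers were treated as names. Deviations of same-numbered libraries correlated between -0.46 and 0.47, without a comparison to differently numbered ones. Sequences and gene order are from RefSeq on GRCm38.p6, which is not the files' build.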

Additional observations from a re-analysis of the deposited data

How the results depend on the processing

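The number of members called on scaled TPM was 1 for LPS against control, 0, 0 and 1 for the low, mid and high dose against LPS, 2, 1 and 1 against control, and 0 for the trend and for any dose (F-test). At an unadjusted p under 0.05, limma gave 3 members at the low and 0 at the mid dose against LPS, 1 for the trend and 4 for the F-test, and the share of all genes at that unadjusted level is not given here. On the deposited TPM these 9 counts were 4, 3, 0, 4, 2, 6, 2, 1 and 4, and with Scgb1a1 removed 3, 3, 0, 4, 2, 2, 0, 1 and 4. Of all genes, 27.9%, 2.11%, 0%, 8.73%, 25.5%, 28.1%, 18.8%, 1.53% and 7.07% passed on scaled TPM. As deposited the shares were 58%, 10.6%, 0%, 27.6%, 46.4%, 54.8%, 39%, 8.4% and 22.2%. For the removal of Scgb1a1 and most settings below, the share of all genes is not given here. Quality weights gave 3 after LPS, 1 and 4 at the low and high dose against LPS, 3 and 4 at the mid and high dose against control, and 3 in the F-test. Without the 7 low-Cxcl2 libraries the counts were 3, 2, 0, 3, 4, 3, 4, 3 and 3. Of all genes, 47.4%, 6.07%, 0.0112%, 24.8%, 43.4%, 45.4%, 51.8% and 16.5% then passed, from LPS to the trend. A fit to the compared groups alone gave 2 after LPS, 0 at the high dose against LPS, and 2 and 0 at the mid and high dose against control. Without a filter the high dose gave 0 in both comparisons and the low dose against control 1. Without the 3 libraries rich in Acta1, 2 passed after LPS, 0 at the high dose against LPS and 1 at the low dose against control. Upper-quartile scaling and the length curve each gave 2 at the mid dose against control. At the high dose against control, upper-quartile scaling kept the count at 1 but with another gene: Egfr was lost and Errfi1 was called lower. A required log2 fold of 1 left 0 members in each of LPS, high against LPS, and all doses against control. The count over the pathway lists after LPS was 18, all higher. It was 54 as deposited, 38 without Scgb1a1 and 7 with the fold threshold, also all higher. It was 30 with quality weights (27 higher, 3 lower), 31 without the 7 libraries (28 higher, 3 lower), 17 with upper-quartile scaling (15 higher, 2 lower) and 19 with the length curve removed (18 higher, 1 lower). Leaving out each library in turn gave 1 to 1 after LPS, 0 to 0 at the low and mid dose against LPS, 0 to 1 at the high dose against LPS, 1 to 2 at the low and mid dose and 0 to 2 at the high dose against control, 0 to 0 in the trend and F-test, and 13 to 20 over the lists. The replicate number as a block gave 1 member (Egfr) in the F-test and changed no other member count, and 17 list genes passed. Same-numbered libraries correlated between -0.46 and 0.47. Differently numbered libraries were not compared, so these values cannot settle whether the numbers pair the mice. No member's called direction reversed under any alternative run. Read depth is unknown here, which limits what can be said of Ereg and other genes near 1 TPM.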
